A study of Mus musculus with 7 samples.

Results

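Most Eif4 genes encode factors that bring messenger RNA to the small ribosomal subunit, while Eif4a3 encodes a related helicase and Eif4ebp1 an inhibitor. Described here are 10 Eif4 genes, out of 20385 genes in the deposited table: Eif4a1, Eif4a2, Eif4a3, Eif4b, Eif4e, Eif4g1, Eif4g2, Eif4g3, Eif4h and Eif4ebp1. They were taken by name, through the RefSeq accession of each transcript, and a gene with several transcript rows was represented by the row of highest mean. Eif4a2 was picked because its value falls with time, so its values are given as a description without a test. The other 9 were taken as its family and were not picked by their values. The samples were E14 cells, a line of mouse embryonic stem cells, kept in 2i medium, which holds such cells in the naive state with kinase inhibitors. All of them carried the Brn2-RFP GAVPO induction cassette, in which a light-switched factor drives Brn2, a POU-domain factor of neural cells, together with a red fluorescent protein. Cells on Ibidi plates were lit by an LED at 300 µW for 0, 2, 4, 6, 14, 24 or 48 h, and RNA was sequenced from 1 library per time, 7 in all. Values listed "in order of time" below follow those 7 times. The samples used here hold no replicate, no group without the cassette and no unlit series, so time of light and time in culture cannot be told apart. The labels do not say whether the line is 1 clone.

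Most eukaryotic messenger RNAs start translation through eIF4F, a complex on the cap at the 5′ end. Its subunits are eIF4E, which binds the cap, eIF4G, a scaffold, and eIF4A, an RNA helicase of the DEAD-box family that opens structure ahead of the ribosome. eIF4B and eIF4H stimulate the helicase, and the 4E-binding protein encoded by Eif4ebp1 keeps eIF4E from the scaffold until the kinase mTOR phosphorylates it. Eif4a1 and Eif4a2 encode closely related helicases, while Eif4a3 encodes a relative that sits in the exon junction complex, which marks spliced RNA. Eif4g2 encodes a shortened scaffold that lacks the eIF4E-binding part.

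The values behave as reads on exons divided by the genomic span of the transcript and by library size, with an implied depth of 7.06 to 16.12 megareads per library. Pou3f2, the gene of Brn2, stood at 77.0, 36.9, 47.3, 96.2, 119, 41.3 and 7.19 in order of time. It was thus high before light and lowest at 48 h. All 8 stem cell markers had a mean of at least 1, with summed values of 1530, 1740, 1540, 1360, 1280, 1010 and 1020 in order of time. The largest part of that sum was Dppa5a (1076 and 490.9 at 0 and 48 h), while Pou5f1 (153.7 and 234.8) and Sox2 (74.3 and 97.0) were higher at 48 h. The 8 neuronal markers summed to 11, 20.4, 23.0, 23.6, 43.5, 93.2 and 125 in order of time, opposite to Eif4a2. Most of the sum at 48 h was Tubb3 (44.6), Neurod1 (43.6) and Insm1 (28.2), while Map2 and Dcx reached only 0.116 and 0.107. Stmn2 was 4.19 at 2 h and 3.68 at 48 h. Of the 8 fibroblast or feeder markers 0 had a mean of at least 1, and 6 stayed under 0.1 in every library, but Col1a2 went from 0.0450 at 0 h to 0.874 at 24 h and 2.16 at 48 h. The sums of neural progenitor markers (3.55 and 26.5 at 0 and 48 h) and of endoderm and mesoderm markers (0.614 and 5.59, with Foxa2 at 0.115 and 4.62) were also higher at the end. In the progenitor sum Sox3 stood at 0.716 and 17.2 and Hes5 at 0.0928 and 5.52, while Nes stood at 2.03 and 1.89. The part of these marker changes in the course of Eif4a2 was not tested. The libraries also differed with the GC content of transcripts. Genes in the lowest decile of GC content deviated from their own means by medians of 0.27, -0.26 and -0.57 (log2) in the 0, 6 and 48 h libraries. Those in the highest decile deviated by -0.35, 0.23 and 0.51 in the same libraries. In the 14 h library the medians were -0.10 for the lowest and 0.20 for the highest decile. Fitted changes of the tested Eif4 genes and of the lists are therefore also given with this GC trend removed from each library.

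Eif4a2 has 3 rows in the table, which differ in their exons, and the results turn on that difference. Row 1 (NM_001123038), the row of highest mean, runs from the 80 bases of exon 10 into a last exon of 1596 bases that starts inside what row 2 has as the last intron. Row 2 (NM_013506) joins exon 10 to a last exon of 781 bases. In row 1 the reading frame ends 10 bases into the last exon, stop codon included, for 362 codons in all. In row 2 it goes on for 145 bases, for 407 codons. The coding ends are printed to show what each row would make, from GENCODE M21 transcripts matched by accession (build GRCm38, plus strand), with 30 bases of exon 10 in lower case and the coding part of the last exon in capitals.
Row 1, within chr16:23111867-23112360: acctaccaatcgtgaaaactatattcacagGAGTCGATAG
Row 2, within chr16:23111867-23113311: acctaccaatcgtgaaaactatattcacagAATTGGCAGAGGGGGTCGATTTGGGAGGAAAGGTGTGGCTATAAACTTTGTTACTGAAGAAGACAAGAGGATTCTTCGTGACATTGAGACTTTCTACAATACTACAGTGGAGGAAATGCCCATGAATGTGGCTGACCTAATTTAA
Row 3 (NM_001123037) has the last exon of row 2, extended by 170 bases, and leaves out an exon of 140 bases. That exon is shown because it holds the codons of the helicase's ATP-binding motif I, in capitals.
Left out of row 3, chr16:23109120-23109259: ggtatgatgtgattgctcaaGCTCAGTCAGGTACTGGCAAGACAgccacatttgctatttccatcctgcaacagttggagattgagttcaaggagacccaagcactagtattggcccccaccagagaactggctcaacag

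The 3 eIF4A genes are alike enough that sharing of reads has to be considered. Over the coding sequence Eif4a1 and Eif4a2 (row 2) were identical at 77.5% of aligned positions, with a longest identical run of 20 bases. Eif4a3 was identical to Eif4a1 at 65.2% and to Eif4a2 at 64.5%, with a longest run of 23 bases for either. The codons of the DEAD motif, in capitals, are shown with their surroundings to let the likeness be seen (GRCm38).
Eif4a1, within chr11:69668689-69668748, minus strand: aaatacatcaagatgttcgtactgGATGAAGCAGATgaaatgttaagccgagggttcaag
Eif4a2, within chr16:23110239-23110298, plus strand: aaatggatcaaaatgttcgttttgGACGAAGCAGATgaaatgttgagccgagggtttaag
Eif4a3, within chr11:119294026-119294376, minus strand: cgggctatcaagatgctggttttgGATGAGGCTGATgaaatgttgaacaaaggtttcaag
The stretch of Eif4a3 is joined across an intron. Read length and the treatment of reads that match several genes are not stated in the sources, so exchange of reads between these genes was not tested.

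Eif4a2 fell over the course in all 3 rows. Row 1 had values of 36.3, 28.0, 25.6, 17.2, 14.0, 15.0 and 10.9 in order of time. Each library was lower than the one before, except that 24 h was slightly above 14 h. The 48 h value was 0.30 of the 0 h value, and at 6 h it was already 0.472 of it. These values rest on about 3344, 1322, 1118, 1455, 788, 926 and 1087 reads in the same order. A line fitted along log2 of hours plus 1 gave a log2 change of -1.69 ± 0.26 (SE) over the course. Among 6424 genes tested this way with limma, 0.0623% were called falling and 0.296% rising at an adjusted p under 0.05. Eif4a2 was chosen from this contrast, so nothing is read from that. With the GC trend removed its fitted change was -1.05 ± 0.25, and the 48 h library stood at -0.77 (log2) against 0 h, less far down than the 24 h library at -1.16. The 6 h library then stood at -0.52, near the 4 h library at -0.46, where as deposited it stood at -1.04. The transcript of row 1 has a GC content of 40.2%, under the 43.3% that bounds the lowest decile. Without the 6 h and 48 h libraries, whose GC deviations were the largest of the 3 that ran opposite to 0 h (14 h, the other, was kept), the slope scaled to 48 h gave -1.67 ± 0.32, and -1.43 ± 0.26 with the GC trend removed as well.

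**Figure D1:**
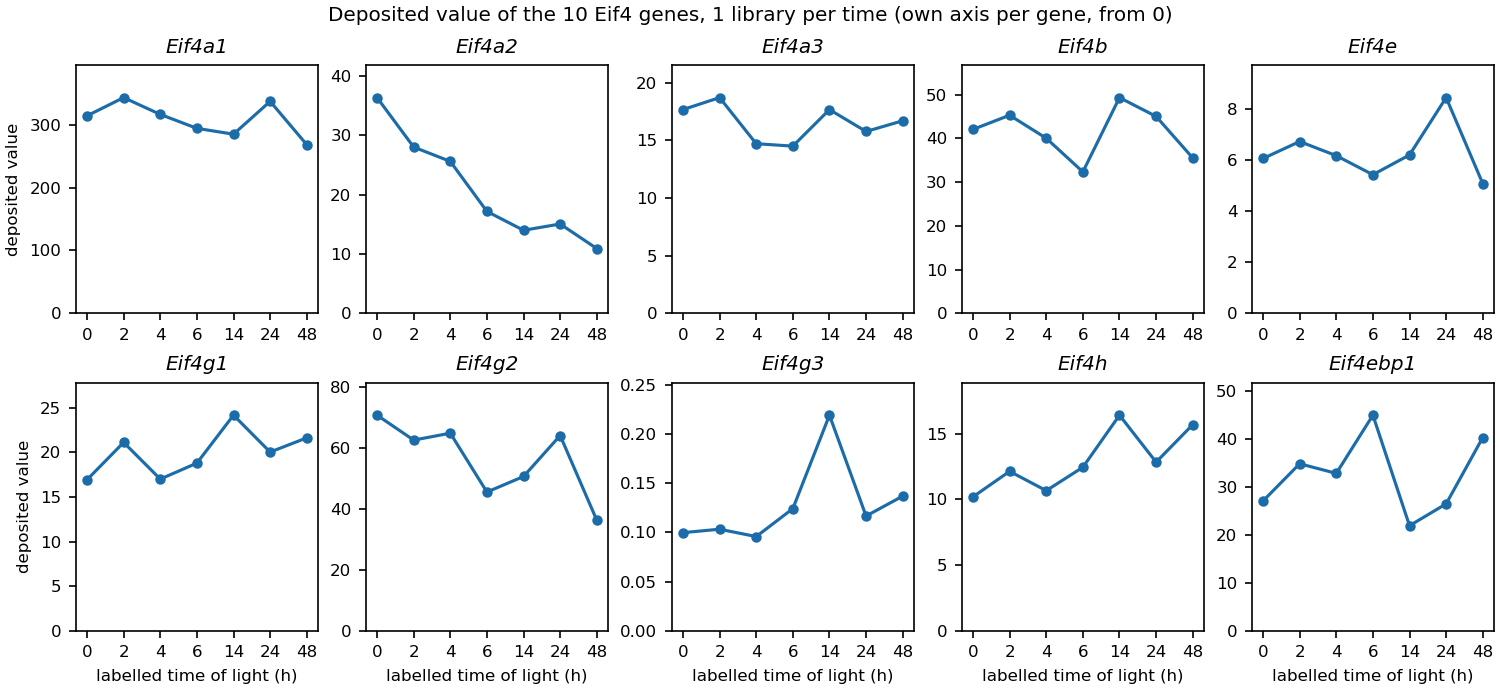
Deposited value (vertical axis, linear and from 0, a separate scale for each gene) of the 10 Eif4 genes at each labelled time of light (horizontal axis, times equally spaced), 1 library per point. Eif4a2 goes from 36.3 at 0 h to 10.9 at 48 h, while Eif4a1 stays between 269 and 344.

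The rows of Eif4a2 did not fall by the same amount. Row 2 went through 27.8, 19.6, 19.3, 8.84, 10.3, 11.6 and 5.27 in order of time, a ratio of 5.28 between 0 h and 48 h. Row 3 went through 23.0, 16.3, 15.2, 7.02, 8.02, 8.67 and 3.75, a ratio of 6.12, against 3.33 for row 1. Between 0 h and 24 h the rows were close, with ratios of 2.42, 2.41 and 2.65 for rows 1, 2 and 3. The gap came with the 6 h and 48 h libraries. Reads of row 2 per read of row 1 were 0.804, 0.738, 0.791, 0.772 and 0.807 at 0, 2, 4, 14 and 24 h, but 0.541 at 6 h and 0.508 at 48 h. On the log2 scale the value of row 2 over that of row 1 ranged by 0.67 over the libraries, and that of row 3 over row 1 by 0.88. Each gene with several rows was then described by its widest such range against its row of highest mean, which for Eif4a2 is that of row 3. Of 208 genes whose rows all had a mean of at least 5, 3 (1.44%) had a wider range than Eif4a2. The median of the 208 genes was 0.241, and Eif4a1 and Eif4g2 ranged by 0.10 and 0.08. A gene with 3 rows has more ranges to take the widest from than a gene with 2, and the 0.67 of row 2 was not ranked.

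What sets rows 1 and 2 apart is a stretch of 816 bases that belongs to exon in row 1 and to the last intron in row 2, set against 315 bases at the 5′ end that only row 2 holds. The reads of row 1 less those of row 2, scaled to library size as RPM (reads per megaread), were 44.1, 45.4, 33.1, 48.7, 19.7, 17.9 and 33.2 in order of time. Those of row 2 were 181, 128, 125, 57.5, 66.8, 75.1 and 34.3 RPM. At 48 h the difference was thus close in size to the whole of row 2, while at 0 h it was a minor part. The difference lay between 33.1 and 48.7 up to 6 h, was lowest at 14 and 24 h and higher again at 48 h, whereas row 2 was lowest at 48 h. Reads on the 816 bases, whether from the long last exon or from unspliced RNA, cannot be told apart here. GC content of that stretch was 39.0%. A bulk sample also cannot separate fewer cells with the transcript from less of it per cell.

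**Figure D2:**
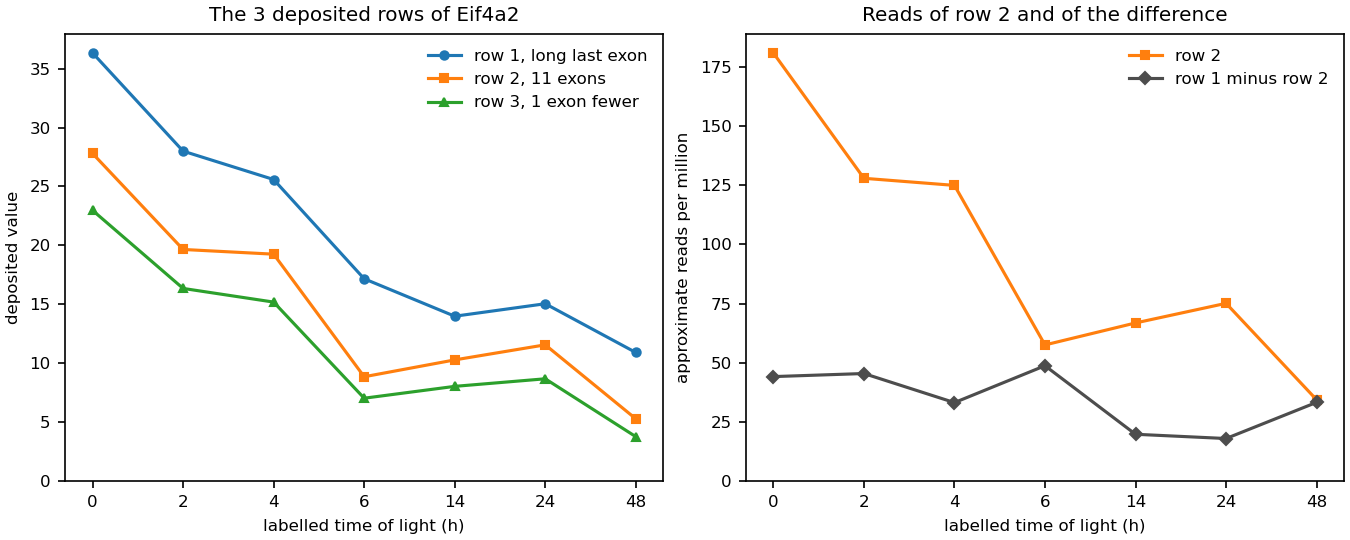
Left, deposited value of the 3 Eif4a2 rows at each labelled time, 1 library per point; right, approximate RPM of row 2 and of row 1 minus row 2. Row 2 drops from 181 to 34.3 RPM, while the difference lies between 17.9 and 48.7.

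Rfc4, a subunit of the clamp loader of replication, lies on the opposite strand and overlaps 4 of the 2708 exonic bases of row 1, 5 of 2208 in row 2 and 175 of 2203 in row 3. Whether its reads entered these rows was not tested. Its own values were 1.40, 1.38, 1.504, 1.02, 1.51, 1.54 and 0.651 in order of time. The span also holds 6 annotated small RNA genes, small nucleolar RNAs and a miRNA, which overlap 0 exonic bases of any row.

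Eif4a1, the main helicase of eIF4F, was nearly level. It stood at 315, 344, 317, 295, 285, 338 and 269 in order of time, a range of 1.28 times. It was highest at 2 and 24 h and lowest at 48 h. The fitted log2 change was -0.19 ± 0.24 (adjusted p = 0.671 by limma), or -0.08 ± 0.19 with the GC trend removed. Per kilobase of exon, Eif4a1 exceeded Eif4a2 by 11.5, 16.3, 16.4, 22.8, 27.1, 29.8 and 32.7 times in order of time. Eif4a2 thus went from 8.0% to 2.97% of the summed level of both. By row 1 as deposited, the ratio was wider in each library than in the one before. Row 2 of Eif4a2 instead stood at 8.84 at 6 h and 10.3 at 14 h, where Eif4a1 stood at 295 and 285. With the GC trend removed, Eif4a2 lay at -0.52, -0.89, -1.16 and -0.77 (log2 against 0 h) at 6, 14, 24 and 48 h. Eif4a1 lay between -0.07 and 0.02 in those libraries, so the 48 h library turned back. On the log2 scale Eif4a2 over Eif4a1 changed by -1.51 between the first and last libraries as deposited, and by -0.70 once the GC trend was taken out. Taken from row 2 and row 3, as deposited, that change was -2.17 and -2.39.

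Eif4a3, the exon junction helicase, ran through 17.7, 18.7, 14.7, 14.5, 17.7, 15.8 and 16.7. Its fitted change was -0.09 ± 0.25 (adjusted p = 0.849 by limma), or -0.38 ± 0.24 with the GC trend removed (adjusted p = 0.418). Values at 0, 2 and 14 h lay close together, and those at 4 and 6 h were the lowest.

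Of the scaffolds, Eif4g1, the main partner of eIF4E, ran through 16.9, 21.1, 17.0, 18.8, 24.2, 20.03 and 21.6. It was highest at 14 and 48 h and lowest at 0 and 4 h (fitted log2 change 0.32 ± 0.26, adjusted p = 0.469 by limma, or 0.01 ± 0.24 with the GC trend removed). Eif4g3, a related scaffold in a very long gene, had its highest and lowest libraries at the same times, at 0.0997, 0.103, 0.0957, 0.124, 0.219, 0.117 and 0.137. The 14 h value was 2.20 times the 0 h value, on about 426 and 317 reads. Its mean was under the value of 1 that the main test required. On recovered reads its fitted change was 0.60 ± 0.41 (adjusted p = 0.385 by limma-voom).

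Eif4g2, the shortened scaffold also called DAP5, was lower at the end of the course but did not pass. It stood at 70.7, 62.6, 64.8, 45.5, 50.6, 64.1 and 36.3, with its lowest libraries at 6 and 48 h and 24 h close to 4 h. The fitted log2 change was -0.70 ± 0.32 (adjusted p = 0.239 by limma), the largest among the 8 tested genes not picked by value. With the GC trend removed it was -0.26 ± 0.20, and without the 48 h library -0.37 ± 0.40. The transcript matched to its first row, at 43.2% GC, is also in the lowest decile, just under the bound of 43.3%. The length of that match was implausible. The GC content, the value with the GC trend removed and the reads of Eif4g2 used by limma-voom rest on it and are uncertain. By its second row (NM_001040131), whose matched length was usable, Eif4g2 per kilobase of exon made up 75.9% of the 3 scaffolds at 0 h and 54.3% at 48 h, with 69.9% at 24 h.

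Eif4e, the cap-binding subunit, was at 6.06, 6.72, 6.17, 5.42, 6.20, 8.44 and 5.07. Like Eif4g2 it was lowest at 6 and 48 h, and it was highest at 24 h. The fitted change was -0.00 ± 0.28 (adjusted p = 0.994 by limma). With a GC content of 40.5%, Eif4e moved to 0.61 ± 0.19 when the GC trend was removed, with an unadjusted p of 0.00968 that did not survive adjustment (adjusted p = 0.155). On that scale every library from 2 to 48 h lay above 0 h, by 0.05 to 0.63 (log2).

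Eif4ebp1, the brake on eIF4E, varied more than most of the family but not along time. Values were 27.1, 34.8, 32.8, 44.9, 21.9, 26.4 and 40.3 in order of time. It was highest at 6 and 48 h and lowest at 14 and 24 h, a range of 2.05 times. The fitted change was 0.09 ± 0.40 (adjusted p = 0.909 by limma), or 0.19 ± 0.41 with the GC trend removed. The peaks at 6 and 48 h stayed with the GC trend removed, at 0.78 and 0.70 (log2) above 0 h, with 14 h at -0.23. Per kilobase of exon the ratio of Eif4ebp1 to Eif4e was 5.45, 6.31, 6.48, 10.1, 4.31, 3.82 and 9.67 in order of time. Atf4, a stress factor known to induce Eif4ebp1, was highest at 0 h (236), next at 6 h (173), and between 114 and 133 in the other libraries. Its part in the course of Eif4ebp1 was not tested.

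Eif4b and Eif4h, the cofactors of the helicase, took different courses. Eif4b was 42.0, 45.3, 40.0, 32.3, 49.3, 45.0 and 35.5, lowest at 6 and 48 h and highest at 14 h (-0.08 ± 0.30, adjusted p = 0.896 by limma, or -0.12 ± 0.27 with the GC trend removed). Eif4h was 10.2, 12.1, 10.7, 12.4, 16.4, 12.8 and 15.7, with its highest libraries at 14 and 48 h and its lowest at 0 and 4 h, the same as Eif4g1 and Eif4g3. Its fitted change was 0.57 ± 0.26 (adjusted p = 0.233 by limma), or 0.17 ± 0.23 with the GC trend removed. Eif4h and Eif4g1 have GC contents of 55.5% and 54.4%.

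In the trend test, 0 of the 8 tested genes not picked by value were called in either direction, where 0.358% of all genes tested were called. None of the 8 had an unadjusted p under 0.05, against 21.6% of all genes, but Eif4h and Eif4g2 lay just over it (unadjusted p = 0.0508 and 0.0538 by limma). The median fitted change of the 8 genes was -0.04, beside 0.01 over all genes, with 3 positive and 5 negative. On recovered reads limma-voom called 0 of 9 (3.02% of 13543 genes, 2.22% rising and 0.805% falling), with 2 at an unadjusted p under 0.05, Eif4g2 and Eif4h, where 23.5% of all genes were. After removal of the GC trend limma called 0 of 8 and 0.0% of all genes, with Eif4e the 1 gene of the 8 at an unadjusted p under 0.05 (18.3% of all genes). By limma-voom 0 of 9 were then called, beside 2.36% of all genes (1.75% rising and 0.613% falling), again with Eif4e alone under 0.05 unadjusted (20.2% of all genes). A missed threshold does not show that a level stayed the same: at 5 residual degrees of freedom the standard errors, 0.24 to 0.40 on the log2 scale, leave room for moderate changes.

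**Figure D3:**
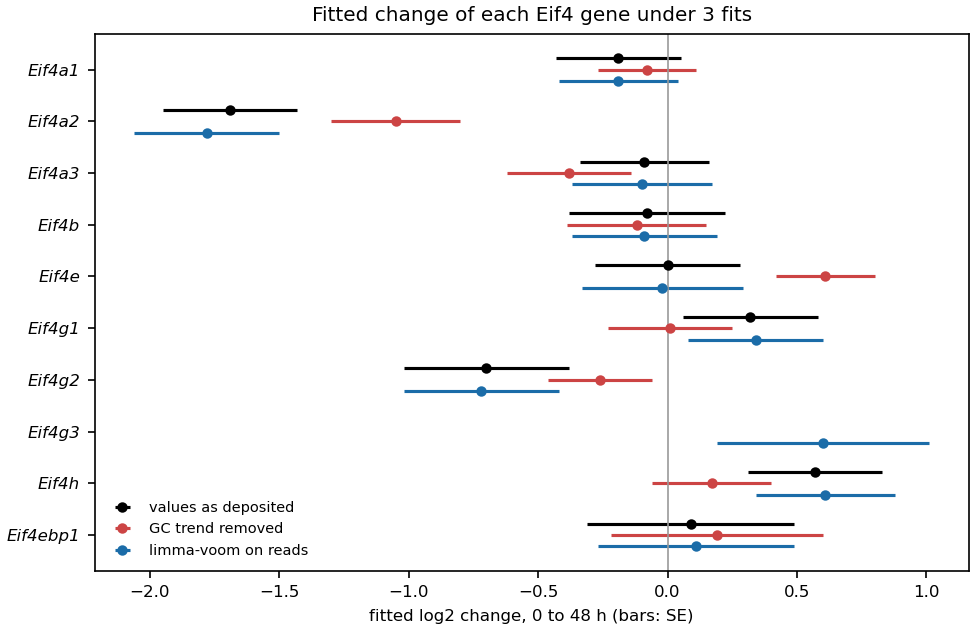
Fitted log2 change from 0 to 48 h (horizontal axis, bars are standard errors over the 7 libraries) of each Eif4 gene by limma on deposited values, with the GC trend removed, and by limma-voom on reads. Eif4a2 lies at -1.69 and -1.05 in the first and second fits, and Eif4e moves from near 0 to 0.61.

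The 6 h and 48 h libraries recur in these descriptions. They were the lowest pair for Eif4b, Eif4e and Eif4g2, 3 of the 10 genes, and the highest pair for Eif4ebp1. Over all genes tested they were the lowest pair in 15.3% and the highest pair in 15.1%. Their GC deviations ran the same way, and the part of that in each gene was tested only by removing the trend.

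Compared per kilobase of exon, with exon lengths of the matched GENCODE transcripts, the family spans a wide range of levels. Eif4a1 was far above the rest, with a median of 954 and a range of 815 to 1040. Eif4ebp1 (median 268) and Eif4b (255) followed and were not separated, since their order held in 4 of 7 libraries. Eif4g2 (181) lay under Eif4b in every library and over Eif4a3 (130) in 6 of 7. Eif4h (90.2) and Eif4g1 (74.2) came next, in that order in every library although their ranges overlap. Eif4e (41.4) and Eif4a2 (39.2) were not separated, with Eif4e higher in 3 of 7 libraries. Eif4g3 was lowest, with a median of 4.06. By row 1, Eif4a2 stood above Eif4e from 0 to 6 h (83.0 against 40.7 at the start) and below it from 14 h on (24.9 against 34.1 at the end). Rows 2 and 3 were not put on this scale. At 6 h row 2 was at 0.318 of its 0 h value, against 0.472 for row 1, so the time of crossing depends on the row. These levels are approximate, because the sources used here do not say which exons the authors counted.

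**Figure D4:**
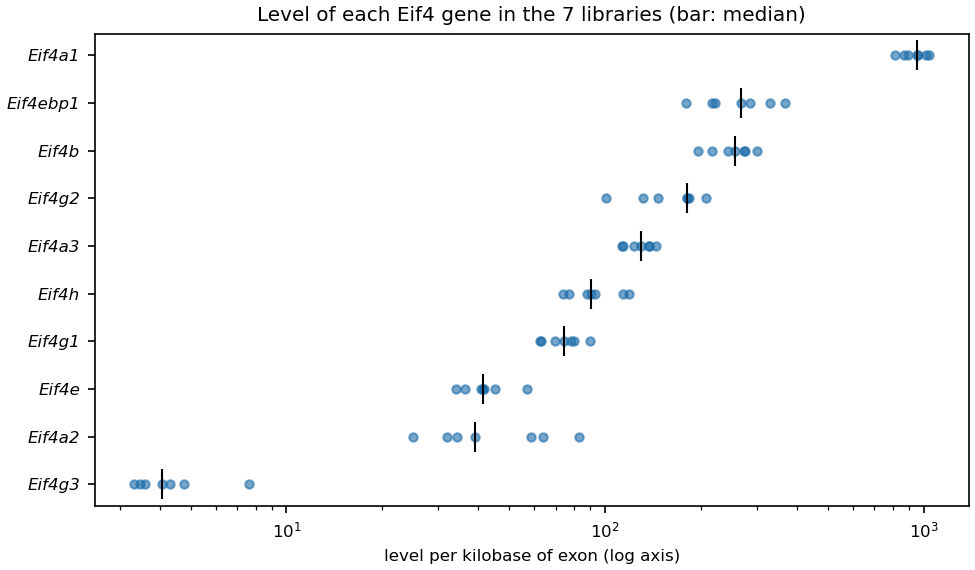
Level per kilobase of exon (horizontal log axis) of each Eif4 gene in the 7 libraries (points), with the median as a bar. Eif4a1 has a median of 954 and Eif4g3 of 4.06, and Eif4a2 covers the widest range, 24.9 to 83.0.

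Among other genes of this arm of translation, fixed as lists by function, 0 passed the main trend test. Of all genes tested only 0.358% passed, so a count of 0 says little about the lists. Of 27 other Eif4 genes and regulators, 16 were tested, with a median change of 0.07 and 5 at an unadjusted p under 0.05 (21.6% of all genes). With the GC trend removed the median turned to -0.07 and 3 were under 0.05 (18.3% of all genes). The RNA helicase Ddx3x was lowest at 6 and 48 h, with 19.2 and 13.1 against 40.3 at the start (-1.15 ± 0.52, adjusted p = 0.233 by limma, or -0.56 with the GC trend removed). The related brakes differed from each other in sign: Eif4ebp2 stood at 11.3 and 20.4 at 0 and 48 h (0.65, adjusted p = 0.218), and Eif4ebp3 at 8.16 and 4.70 (-0.57, adjusted p = 0.227), with 0.18 and -0.83 after removal of the GC trend. Mknk2, a kinase of eIF4E, was highest at 6 and 48 h, with 16.85 and 19.1 against 9.715 at the start (adjusted p = 0.310), and the poly(A)-binding gene Pabpc4 3.16 and 8.02 at 0 and 48 h (adjusted p = 0.158). Their fitted changes of 0.68 and 0.79 became 0.00 and 0.49 with the GC trend removed, Mknk2 having 60.3% GC.

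Of 36 other initiation factors 35 were tested, with 17 positive, 18 negative, a median of -0.01 and 11 at an unadjusted p under 0.05 (21.6% of all genes). After removal of the GC trend the median was -0.10 and 6 were under 0.05 (18.3% of all genes). The lowest fitted changes were those of Eif2s2, the beta subunit of eIF2, at 41.2, 20.4 and 14.7 at 0, 14 and 48 h (-1.36 ± 0.35, adjusted p = 0.088), and of Eif5, its GTPase-activating partner, at 74.2, 40.9 and 25.8 (adjusted p = 0.136). Abce1, the ribosome recycling factor, was 19.4 and 6.95 at 0 and 48 h (adjusted p = 0.168). Their GC contents were 42.1%, 41.7% and 40.3%, and with the GC trend removed the changes were -0.85, -0.54 and -0.43. At the other end were Eif1ax (3.97 and 8.55), Eif3k (16.4 and 29.5) and Eif1b (7.71 and 13.9), with adjusted p = 0.158, 0.222 and 0.311 by limma. Their changes of 0.81, 0.68 and 0.59 became 1.48, 0.38 and 0.32 with the GC trend removed.

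The list of eIF2 kinases, phosphatase subunits and Atf4 had 4 tested members, all with a negative change (median -0.62, or -0.83 with the GC trend removed). Over all 6424 genes tested 3239 changes were positive and 3185 negative, or 2878 and 3546 with the GC trend removed. Of the 4, 3 had an unadjusted p under 0.05 by limma (21.6% of all genes), or 2 with the GC trend removed (18.3%). Atf4 stood at 236 and 125 at 0 and 48 h (adjusted p = 0.186), Ppp1r15b at 37.2 and 22.4 and Ppp1r15a at 20.2 and 15.1 (adjusted p = 0.222 and 0.354). Their changes of -0.80, -0.65 and -0.59 became -1.10, -0.60 and -1.06 with the GC trend removed. In elongation and termination 9 were tested (median 0.00, or 0.04 with the GC trend removed). The release factors Gspt2 (10.1 and 4.57 at 0 and 48 h) and Etf1 (10.9 and 5.38) had negative changes, and the translocase Eef2 (398 and 631) a positive one, with adjusted p = 0.257, 0.264 and 0.334 by limma. Their changes of -0.69, -0.66 and 0.50 became -0.58, -0.29 and 0.00 with the GC trend removed. The elongation factor genes Eef1a1, Eef1d and Eef1b2 had fitted changes of -0.28, 0.29 and 0.20, or -0.13, 0.09 and 0.44 with it removed. In the exon junction complex, the site of Eif4a3, 8 were tested, with 5 positive, 3 negative and a median of 0.11. Once the GC trend was taken out 2 were positive and 6 negative, and the median turned to -0.18. Rbm8a, a core partner of Eif4a3, was 16.5 and 7.77 at 0 and 48 h (adjusted p = 0.262), and Rnps1 7.38 and 12.5 (adjusted p = 0.246). Their changes of -0.70 and 0.56 became -0.33 and 0.41 with the GC trend removed. The fitted values of Sap18 and Casc3 turned in sign, from -0.25 to 0.12 and from 0.13 to -0.13.

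**Figure D5:**
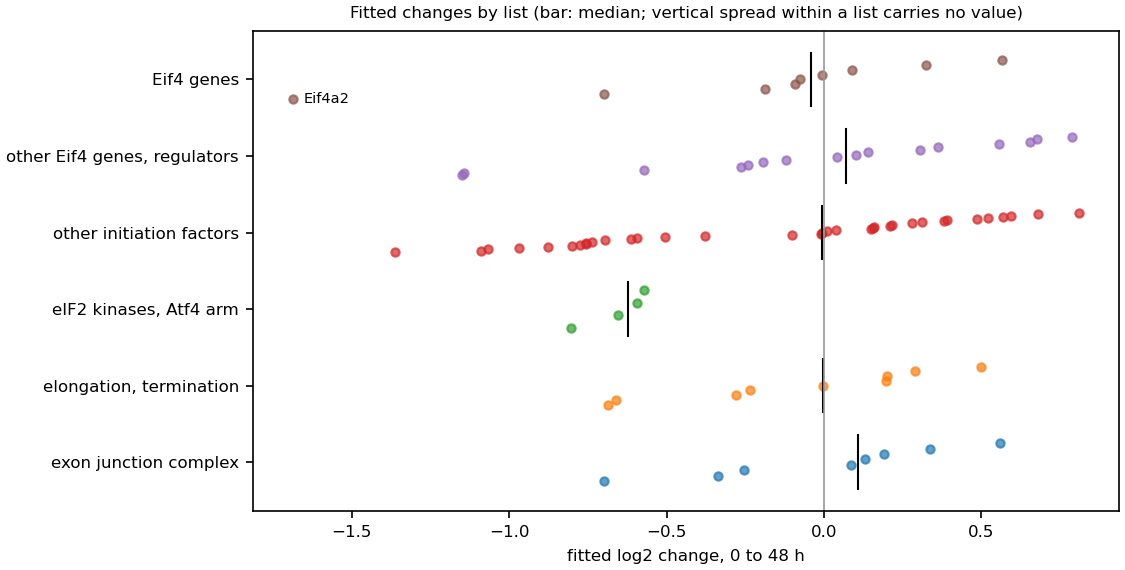
Fitted log2 change from 0 to 48 h (horizontal axis) of each tested gene by list, with the median of each list as a bar (Eif4a2 left out of the median of its list). Eif4a2, at -1.69, lies below every other gene drawn.

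The genes whose course was most like that of Eif4a2 were sought by Pearson's r on log2 of the value plus 1 over the 7 libraries, among 1319 genes with a mean of at least 10. Sod2, mitochondrial superoxide dismutase, came first (r = 0.956) with 36.4, 22.5, 21.2 and 14.4 at 0, 6, 14 and 48 h. It was followed by Mcl1, an anti-apoptotic gene (0.955), Cggbp1, a CGG-repeat binding protein (0.954), Tmem64 (0.929), the splicing factor U2af1 (0.923) and Rnf7 (0.923). Among its own family r was 0.80 for Eif4g2, 0.63 for Eif4a1 and -0.88 for Eif4h. With the GC trend removed r to Sod2 was 0.936 and 1 of the 6 genes, Sod2, stayed among the first 6, while r to U2af1 fell to 0.57. All such values share the 7 libraries and their depth and GC trends.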

How the data were processed

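RNA was sequenced in 7 libraries of 1 labelled time each. Per the labels' protocols RNA was extracted with an RNeasy kit and libraries made with a Lexogen SENSE kit; the submitters' processing notes name Bowtie2, with no version, and the build mm9. The sources used here do not say how reads were counted or whether by strand. The authors' deposited values have no named unit. Each was multiplied by the GENCODE M21 span (GRCm38) and a library factor. Of results from 2 to 20, 80.0% to 81.2% were whole to within 0.1, where 20% would be by chance, so spans gave approximate reads. Exonic length gave 21.5% to 22.8%, but with a library factor found from spans, so it was not compared on equal terms. Row 3 of Eif4a2 spans all of row 1 but has fewer reads, so its value cannot include all intronic reads of that span.

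Of 30673 rows, 3320 start-site rows, at 0 throughout, 695 further placements and 299 rows without a symbol were left out. NM_001005331, named Eif4g1 in the table, matched no reference accession and was not used. Trends were fitted with limma 3.58.1 in R 4.3.3 (lmFit, eBayes with trend) on log2(value + 1) against log2(hours + 1), for 6424 genes of mean at least 1, with Benjamini-Hochberg adjustment over them and a threshold of 0.05. With 1 library per time, p-values rest on the spread of single libraries around a line. The GC trend was a natural spline (5 degrees of freedom) fitted per library on 2461 genes of mean at least 5. Reads were fitted by limma-voom for genes with at least 10 reads in at least 3 libraries. The scripts were tested on simulated data.

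Members, gene lists and alternatives were chosen with earlier results of these data known. All 10 members are named. Each list gave its called genes and, by size of fitted change among means of at least 5, up to 3 in either direction. Likeness to Eif4a2 gave 6 more. The fits without the 6 h and 48 h libraries and on the other Eif4a2 rows were added after seeing the data.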

Additional observations from a re-analysis of the deposited data

How the results depend on the processing

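No paired analysis was possible because each time has 1 library. Over all genes, 23 passed the trend test (19 rising). The count was 43 with pseudocount 0.1, 55 with time as rank, 190 with time as hours, 36 with rows summed, 409 on reads and 320 on reads with the GC trend removed. It was 1 with quantile normalization, and 0 with pseudocount 5, with no filter, with the GC trend removed, or without the 6 h and 48 h libraries, GC trend removed or not. Leaving out 1 library gave 1 to 76: 76 without 0 h, 9 without 2 h, 1 without 4 h or 24 h, and 2 without 48 h. Of the Eif4 genes not picked by value 0 were called under any alternative run, several of which called 0 genes of all. Of the fixed lists 0 genes were called, 1 with time as hours or as rank, and 4 on reads, with or without the GC trend. On reads 27, 36, 7, 11 and 11 genes were tested, in the order of the lists above. Of all genes 3.02% were called on reads, or 2.36% with the GC trend removed.

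Eif4a2 was picked for its fall, and all 24 alternatives refit the same libraries or a part of them. Their common negative sign therefore adds no support. The fitted change of Eif4a2 was -1.41 with pseudocount 5, -1.87 with quantile normalization, -1.38 with time as hours, -1.97 with rows summed, and -1.05 and -1.04 with the GC trend removed from values and reads. The change of its log2 ratio to Eif4a1, -1.51, became -1.91 with rows summed, -0.70 with the GC trend removed, and -2.17 and -2.39 from rows 2 and 3. Leaving out 1 library gave -0.17 to 0.13 for Eif4b, -0.23 to 0.31 for Eif4e and -0.28 to 0.25 for Eif4ebp1. Signs of genes near 0 turned, and the cause was not tested. Eif4b went to 0.13 without the 48 h library, 0.18 without the 6 h and 48 h libraries, and 0.10 with the GC trend removed as well. Eif4e turned to 0.00 with pseudocount 5, 0.61 and 0.70 with the GC trend removed from values and reads, 0.34 and 0.57 without 6 h and 48 h, and 0.04 and 0.31 without the 2 h or 48 h library. Eif4g1 was -0.01 on reads with the GC trend removed. Eif4ebp1 was -0.05 with quantile normalization, -0.21 and -0.28 without the 0 h or 48 h library, and -0.35 and -0.36 without 6 h and 48 h.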

Other observations

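A few genes of the same lists, lying under the main test's filter or threshold, were called on recovered reads; they are named after their values were seen. Paip2b, a repressor that binds the poly(A)-binding protein, stood at 5.02, 4.53, 4.48, 3.35, 2.99, 2.78 and 1.64 in order of time, each library lower than the one before. Its fitted log2 change on reads was -1.51 ± 0.31 (adjusted p = 0.028 by limma-voom), and it was -1.25 ± 0.25 after removal of the GC trend (adjusted p = 0.030). Upf2, a factor of nonsense-mediated decay, ran through 1.14, 0.646, 0.744, 0.505, 0.580, 0.518 and 0.248 (-1.78 ± 0.36, adjusted p = 0.028, and 0.043 with the GC trend removed, by limma-voom). Eif4e3, a cap-binding relative of Eif4e, rose, on about 23, 5, 13, 22, 16, 42 and 203 reads in order of time (adjusted p = 0.046, and 0.049 with the GC trend removed, by limma-voom). Eif2s2 fell on reads (adjusted p = 0.044 by limma-voom) and was not called after that removal (adjusted p = 0.110), while Eif1ax was called only with it removed (1.74 ± 0.38, adjusted p = 0.048). On reads 3.02% of all genes tested were called, or 2.36% with the GC trend removed.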
